A study of Mus musculus with 6 samples.

Results

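CDK inhibitors and D cyclins set whether a cell leaves the G1 phase of its cycle, and 10 mouse genes of this kind were followed here in cultured podocytes under mechanical stretch. The genes were the INK4 inhibitors Cdkn2a, Cdkn2b, Cdkn2c and Cdkn2d, the Cip/Kip inhibitors Cdkn1a, Cdkn1b and Cdkn1c, and the D cyclins Ccnd1, Ccnd2 and Ccnd3. They were chosen by name, as every probe set that the array annotation assigns to 1 of these symbols alone, which gave 22 probe sets for the 10 genes out of 45037 probe sets and 18193 named genes. For each gene the probe set with the highest mean over all arrays stood for the gene. The cells were SVI, a conditionally immortalized podocyte line derived from mouse kidney glomerulus. They were differentiated for 1 to 2 weeks at 38 °C in medium with 10% fetal bovine serum, without a further treatment in the unstretched group (3 arrays) and with biaxial cyclic stretch for 3 days in the stretched group (3 arrays; 0.5 Hz, up to 5% linear strain). Both groups were the same line. Lines of this kind usually carry a temperature-sensitive large T antigen, a viral protein that binds the retinoblastoma protein and p53, and the labels do not name the one used here. According to the series text 3 independent batches were used, but neither their kind nor the arrays of each are given. The p-values reflect the array-to-array spread, and how much of it is technical is not known.

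D cyclins bind and activate Cdk4 and Cdk6, and these kinases phosphorylate the retinoblastoma protein, which frees E2F factors to switch on the genes of DNA replication. INK4 proteins bind Cdk4 and Cdk6 directly and keep D cyclins off them, whereas Cip/Kip proteins bind assembled cyclin-CDK complexes and block Cdk2 in particular. In the glomerulus, mature podocytes are known as cells that have left the cycle, with Cdkn1b and Cdkn1c among the inhibitors they carry, and Cdkn1a is the inhibitor best known as a target of p53.

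Promoters are shown for the inhibitors whose messenger RNA rose with stretch (Cdkn1b, Cdkn2b and Cdkn2d) and for Cdkn1a, whose level varied most between arrays of a group. Each run holds the 250 bases before a RefSeq transcription start of mouse build GRCm38.p6, 5′ to 3′ on the gene's strand. The windows lie at chr6:134920151-134920400 on the plus strand for Cdkn1b, chr4:89311033-89311282 on the minus strand for Cdkn2b, chr9:21291210-21291459 on the minus strand for Cdkn2d, and chr17:29090729-29090978 on the plus strand for Cdkn1a, where the window precedes the upstream of 2 starts listed 2790 bases apart. Capitals mark matches to the searched motifs.
Cdkn1b: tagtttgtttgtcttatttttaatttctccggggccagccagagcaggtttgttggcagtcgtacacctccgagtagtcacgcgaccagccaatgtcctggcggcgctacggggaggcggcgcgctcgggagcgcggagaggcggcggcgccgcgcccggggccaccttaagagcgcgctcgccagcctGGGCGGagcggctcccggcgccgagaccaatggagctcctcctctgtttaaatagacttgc
Cdkn2b: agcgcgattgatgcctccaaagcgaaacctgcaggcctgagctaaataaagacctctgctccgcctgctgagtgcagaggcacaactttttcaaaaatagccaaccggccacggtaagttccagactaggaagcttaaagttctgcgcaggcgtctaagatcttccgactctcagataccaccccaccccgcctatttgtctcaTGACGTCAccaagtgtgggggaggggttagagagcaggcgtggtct
Cdkn2d: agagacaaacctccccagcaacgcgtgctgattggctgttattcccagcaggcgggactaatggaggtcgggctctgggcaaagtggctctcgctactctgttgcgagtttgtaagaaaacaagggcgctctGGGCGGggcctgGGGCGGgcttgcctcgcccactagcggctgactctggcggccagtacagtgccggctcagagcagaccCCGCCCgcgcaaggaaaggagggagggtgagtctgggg
Cdkn1a: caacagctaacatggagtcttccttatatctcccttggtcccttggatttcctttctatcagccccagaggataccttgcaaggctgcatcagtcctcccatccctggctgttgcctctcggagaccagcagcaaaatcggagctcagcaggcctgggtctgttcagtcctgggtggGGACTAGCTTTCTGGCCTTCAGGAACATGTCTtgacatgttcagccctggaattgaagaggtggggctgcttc

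The capitals in Cdkn1b and Cdkn2d are GC boxes (GGGCGG on either strand), and those in Cdkn2b a cyclic AMP response element (TGACGTCA). Those in Cdkn1a match the searched p53 response element pattern, here a pair of decamers with a spacer between them. They do not mark the extent of a known element. The spacer in Cdkn1a is in capitals too and is longer than either decamer. No motifs overlap in these runs. Both strands were searched over windows of 300 bases, 250 before and 50 after the start, and positions count from the start to the first base of a match. Further GC boxes lie after the start, at 5 in Cdkn2b and at 15 and 34 in Cdkn2d, outside the printed runs. The GC box, found at -61 in Cdkn1b and at -118, -106 and -38 in Cdkn2d, is common, with 35.7% of the 32851 RefSeq windows holding it and 9 of the 11 windows of member genes. The cyclic AMP response element, at -46 in Cdkn2b, was in 1.79% of all windows and in 1 of the 11. The p53 pattern, at -73 in Cdkn1a, was in 24 windows of 32851 (0.0731%) and in 1 of the 11. An E2F site (TTTCGCGC, TTTGGCGC or TTTCCCGC; 1.84% of all windows) was matched once, at -99 of the upstream start of Cdkn2a, and a FoxO site (GTAAACA; 3.65%) once, at -243 of the upstream start of Ccnd3. An E box (CACGTG; 7.15%) was matched once, after the downstream start of Cdkn2c, and a TEAD site (GGAATG; 14.7%) once, at -17 of the downstream start of Ccnd3. AP-1 sites (TGANTCA; 7.81%) and the serum response factor CArG box (1.63%) were matched in 0 of the 11 windows. A match is a run of letters and not a shown binding site. RefSeq windows were found for 7 of the 10 genes.

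In stretched cells 3 of the 7 CDK inhibitor genes were higher and 1 of the 3 D cyclin genes was lower, while the other 6 genes did not pass the test. Cdkn1b was 1.74-fold, Cdkn2d 1.52-fold and Cdkn2b 1.51-fold higher in stretched cells, and Ccnd1 was 1.95-fold lower. Over all genes measured, 14.7% passed in either direction (limma, Benjamini-Hochberg adjusted p under 0.05), 7.98% higher and 6.76% lower, against 3 and 1 of these 10 genes. Rises made up 54.2% of all calls as deposited and 42.7% after a second quantile normalization. The median log2 change was 0.20 over the 10 genes, 0.25 over the 7 inhibitors and -0.02 over all genes. Values of the groups did not overlap for 5 of the 10 genes, against 32.6% of all genes. The plot of array values by gene shows all of these.

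**Figure D1:**
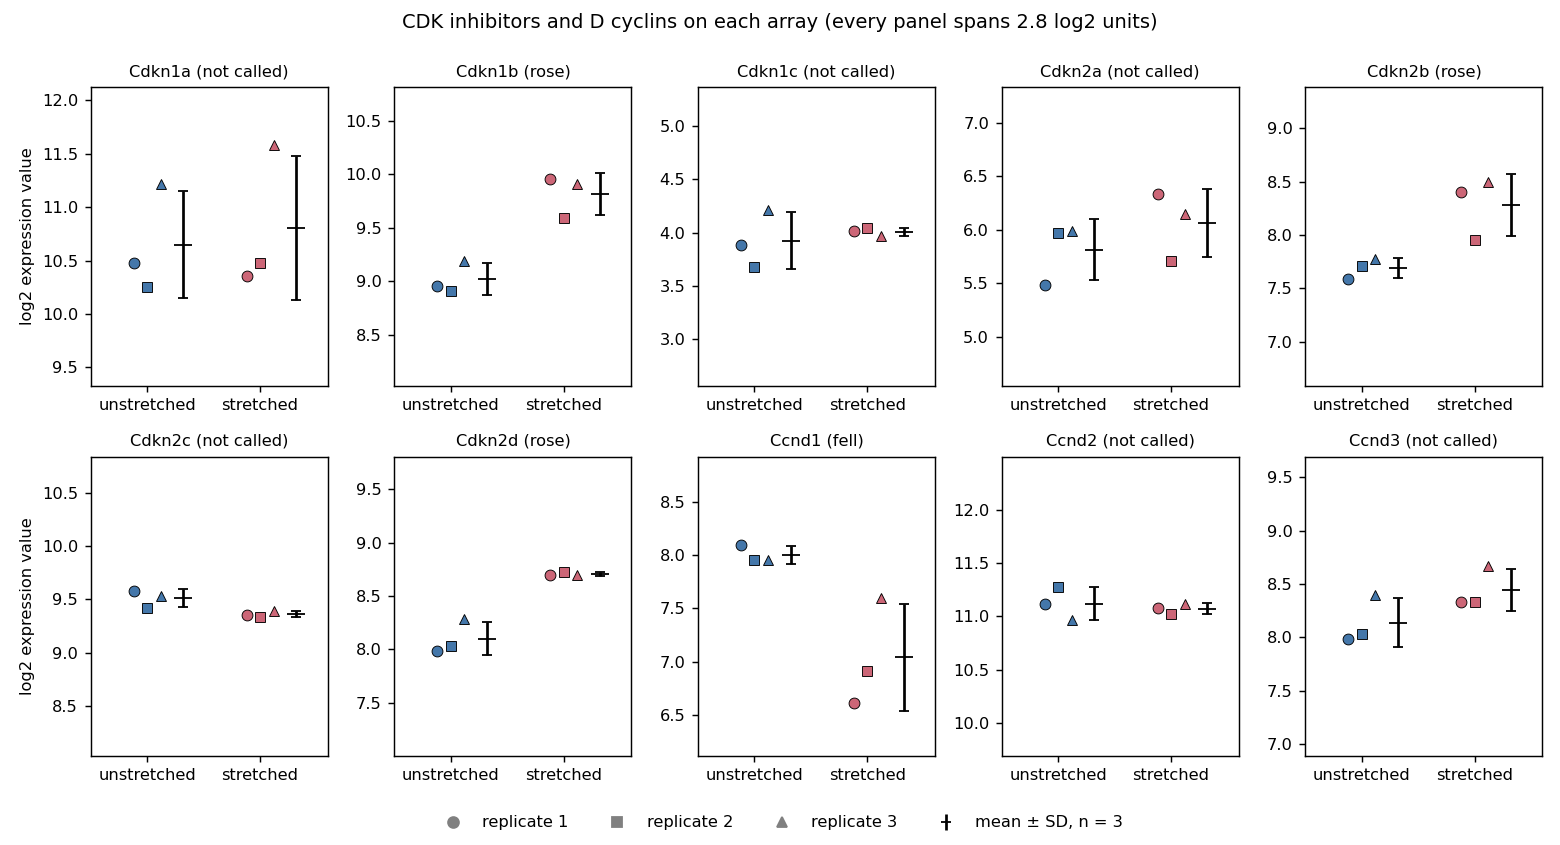
Log2 expression value of each of the 10 genes on every array (vertical axis; every panel spans the same number of log2 units) in unstretched and stretched cells, with the marker shape giving the replicate number and bars the mean ± SD (n = 3). The 3 stretched values of Cdkn1b, Cdkn2b and Cdkn2d lie above all unstretched values, those of Ccnd1 lie below them, and Cdkn1a is highest on replicate 3 of both groups.

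The facts that bear on all values are these. Arrays had equal means of 5.70 log2 units, medians ran from 4.92 to 4.98, and 3 arrays per group limit the precision. The beta-actin control, a sign of RNA quality, had a 3′ minus 5′ log2 difference of 1.57 ± 0.03 in unstretched and 1.30 ± 0.05 in stretched cells (SD, n = 3 each). For the Gapdh control it was 0.25 ± 0.07 in unstretched and 0.16 ± 0.10 in stretched cells, with overlapping groups. The part of RNA quality in the changes below was not tested. Of the 12 podocyte markers measured, 6 had mean values below that of the median gene (5.74), Nphs1 (5.01 ± 0.14 unstretched, SD, n = 3) and Foxc2 among them, while Wt1, Podxl, Synpo, Cd2ap, Plce1 and Kirrel were above it. In limma 2 of the 12 fell (Synpo and Clic5), and 1 was higher at an unadjusted p under 0.05, and their mean level per array was 6.37 to 6.51 in unstretched and 6.24 to 6.34 in stretched cells. Of markers of other cells, 3 of 6 parietal epithelial genes rose and 1 fell, 1 of 9 mesangial and fibroblast genes rose, 1 of 9 leukocyte genes rose and 2 fell, and 1 of 9 tubule genes rose. The 9 endothelial genes had log2 changes of -0.13 to 0.27 and did not pass. Below the median gene were 7 of 9 in each of the mesangial, endothelial, leukocyte and tubule lists and 1 of 6 parietal genes. Well above it were the tubule genes Lrp2 (10.07 ± 0.08 unstretched) and Cdh16 (10.54 ± 0.26) and the leukocyte genes Csf1r, which fell by 0.50, and Cd14, which rose by 0.81. So were the parietal genes Akap12 (11.83 ± 0.03), which rose by 0.41, Cldn2 (10.60 ± 0.04), which fell by 1.01, and Ncam1 (8.43 ± 0.14), which did not pass. The mesangial gene Pdgfrb (8.42 ± 0.05) rose by 0.41. The mean level per array, in unstretched and then stretched cells, was 7.76 to 7.83 and 7.83 to 7.96 for parietal, 5.07 to 5.09 and 5.17 to 5.20 for mesangial, 4.55 to 4.68 and 4.53 to 4.64 for endothelial, 5.60 to 5.67 and 5.46 to 5.56 for leukocyte, and 5.77 to 5.84 and 5.91 to 5.95 for tubule genes. The part of such cells in the changes below was not tested, and in bulk RNA fewer cells of a type and less RNA per cell cannot be told apart.

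Among the Cip/Kip inhibitors, Cdkn1b (p27, which binds and blocks cyclin E-Cdk2) had log2 values of 8.96, 8.91 and 9.19 on the unstretched arrays and 9.96, 9.59 and 9.91 on the stretched arrays. Every stretched value lay above every unstretched value. The mean moved from 9.02 ± 0.15 to 9.82 ± 0.20 (SD, n = 3 each), a log2 change of 0.80 (SE 0.12, 95% interval 0.54 to 1.06, limma adjusted p = 0.00134). The two-sided exact permutation test over the 6 arrays gave p = 0.1, the smallest that 3 against 3 can give. A second, dim probe set of Cdkn1b, with values of 4.64, 4.57 and 4.76 in unstretched and 4.90, 4.96 and 5.10 in stretched cells, rose by 0.33 (SE 0.09, limma adjusted p = 0.0480 over all probe sets). Its groups did not overlap either. This probe set lies below the median gene, where RMA understates changes.

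Cdkn1a (p21, a target of p53 and an inhibitor of several cyclin-CDK complexes) had log2 values of 10.48, 10.25 and 11.22 on unstretched arrays 1, 2 and 3 and 10.36, 10.48 and 11.58 on stretched arrays 1, 2 and 3. The groups overlapped, and the high value of each group was its replicate 3. In limma the change amounted to 0.16 log2 units (SE 0.31, adjusted p = 0.797; exact permutation p = 0.7), with a 95% interval of -0.53 to 0.84. With an SE over 3 times the median SE of all genes (0.10), a change as large as that of Cdkn1b lies inside this interval. Without stretched replicate 3 the log2 change was -0.23, and without unstretched replicate 3 it was 0.44, neither past the threshold. The second probe set read 9.48, 9.42 and 10.44 in unstretched and 9.27, 9.33 and 10.29 in stretched cells, again highest on replicate 3 of each group. Its log2 change was -0.15 (SE 0.30, limma adjusted p = 0.812 over all probe sets), opposite in sign to the first, and the mean of both changed by 0.0025.

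Replicate 3 of Cdkn1a exceeded the mean of the other arrays of its group by 0.85 log2 units in unstretched and by 1.17 in stretched cells. Ranked by the smaller of these differences, Cdkn1a was in place 4 of 18193 genes. Of 25 other p53 target genes measured, 19 were above the mean of the other arrays in replicate 3 of both groups (76.0%), against 23.2% of all genes. The same count was 2 of 25 for replicate 1 (29.0% of all genes) and 3 of 25 for replicate 2 (29.2%). Each array was set against the others of its group, so these 3 counts depend on each other. For replicate 3 the difference exceeded 0.5 log2 units in both groups for 35 genes in all. They included 5 of the 25, which are named here after their values were seen: the p53 inhibitor Mdm2 (0.67 unstretched, 0.58 stretched), the death receptor gene Eda2r (0.83 and 1.12), the antiproliferative gene Btg2 (1.01 and 0.70), the translesion polymerase gene Polk (0.89 and 0.73) and Trp53inp1 (0.68 and 0.80). These are descriptions of 1 array per group and carry no test. The labels do not say whether the replicate number is the batch.

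**Figure D2:**
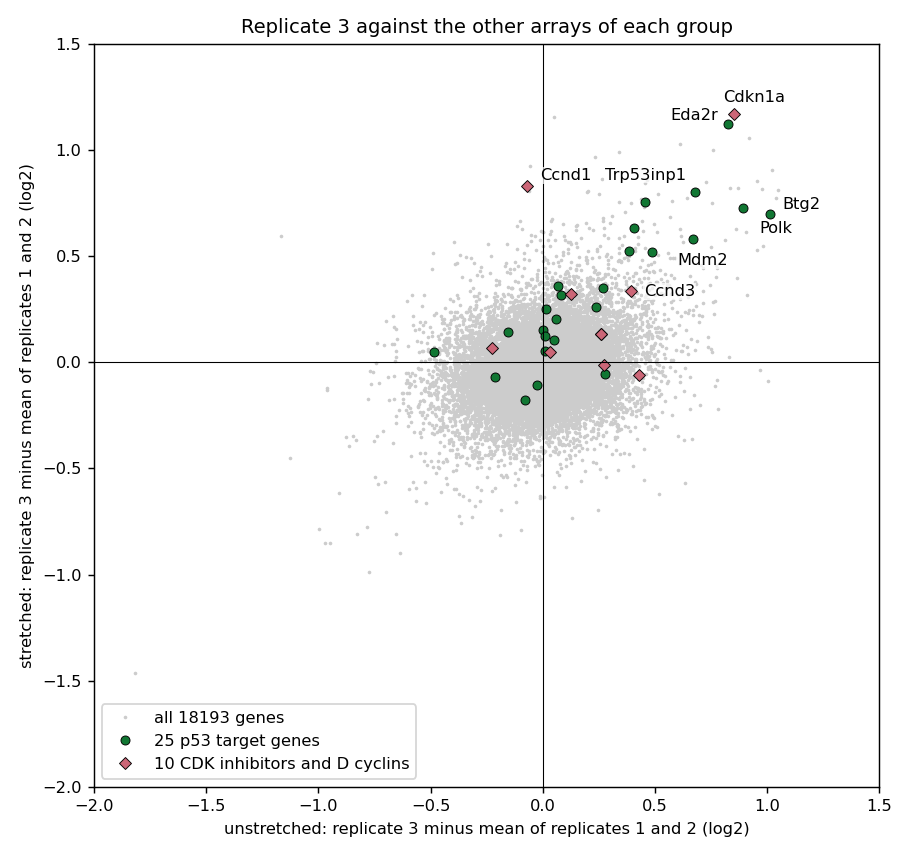
Replicate 3 minus the mean of replicates 1 and 2 (log2) in unstretched cells (horizontal axis) and in stretched cells (vertical axis) for all 18193 genes (grey), 25 p53 target genes (green) and the 10 CDK inhibitors and D cyclins (red). Cdkn1a lies at 0.85 and 1.17 in the upper right corner with Eda2r, Btg2, Polk, Mdm2 and Trp53inp1, whereas Ccnd1 was higher on replicate 3 in stretched cells alone (0.83, against -0.07).

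Cdkn1c (p57, an inhibitor that mature podocytes are known to carry) was read by 1 probe set near the bottom of the scale. Its log2 values were 3.89, 3.68 and 4.21 in unstretched and 4.01, 4.04 and 3.96 in stretched cells, and the groups overlapped. A change of 0.08 (SE 0.12), with bounds of -0.19 and 0.35 at 95%, did not pass (limma adjusted p = 0.732). It was the only one of the 10 genes whose chosen probe set lay below the median gene, so these values can be background and say little of its messenger RNA. Cdkn1a relative to Cdkn1b on the same array changed by -0.65, with overlapping groups (exact permutation p = 0.3).

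Among the INK4 inhibitors, Cdkn2d (p19, an inhibitor of Cdk4 and Cdk6) had log2 values of 7.99, 8.03 and 8.28 in unstretched cells and 8.70, 8.73 and 8.70 in stretched cells. The stretched arrays lay close together and all above the unstretched arrays. The mean moved from 8.10 ± 0.16 to 8.71 ± 0.02 (SD, n = 3 each), which is 0.61 log2 units higher (SE 0.10, 0.39 to 0.82 at 95%; limma adjusted p = 0.00206, exact permutation p = 0.1). Cdkn2b (p15, an inhibitor of Cdk4 and Cdk6 that TGF-beta is known to induce) had values of 7.58, 7.71 and 7.77 in unstretched and 8.40, 7.95 and 8.50 in stretched cells. The groups did not overlap, with stretched replicate 2 nearest to the unstretched arrays. Cdkn2b rose by 0.60 log2 units, between 0.30 and 0.89 at 95% (SE 0.13, limma adjusted p = 0.0128). The call of Cdkn2b ended without stretched replicate 1 (adjusted p = 0.0588), without stretched replicate 3 (0.0567) and without replicate 3 of both groups (0.0725), a setting added after the data were seen, while over its other settings the limma adjusted p ran from 0.00203 to 0.0483.

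Cdkn2a (p16 and, from another reading frame, Arf) had log2 values of 5.48, 5.97 and 5.99 in unstretched and 6.33, 5.71 and 6.15 in stretched cells. The groups overlapped, and the difference of 0.25 (SE 0.17, -0.12 to 0.63 at 95%) did not pass in limma (adjusted p = 0.382). The name of its probe set marks probes common to several transcripts of a gene, so p16 and Arf were not read apart. RefSeq lists its starts 12427 bases apart, and Cdkn2b starts 16413 bases from the nearer of them on the same strand of chromosome 4. Cdkn2a and Cdkn2b are direct neighbours in gene order. Relative to Cdkn2b on the same array, Cdkn2a changed by -0.34 with overlapping groups (exact permutation p = 0.2), so unequal changes of this pair were not shown. Cdkn2c (p18, an inhibitor of Cdk4 and Cdk6) had values of 9.58, 9.42 and 9.53 in unstretched and 9.36, 9.34 and 9.40 in stretched cells. The groups just failed to overlap, but the log2 change of -0.15 (SE 0.08, 95% interval -0.33 to 0.04) did not pass (limma adjusted p = 0.290).

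Differences between INK4 genes were also taken within each array. The log2 value of Cdkn2b relative to Cdkn2c moved from -1.82 ± 0.16 to -1.08 ± 0.27 (SD, n = 3 each), and that of Cdkn2c relative to Cdkn2d from 1.41 ± 0.17 to 0.66 ± 0.04. Both pairs were without overlap (exact permutation p = 0.1, the smallest possible). Cdkn2b and Cdkn2d differed from each other by -0.01 in their change, with overlapping groups (exact permutation p = 1.0). In all, 12 pairs within the 3 families were compared, 5 of the 12 were without overlap, and the smallest adjusted value over the 12 exact tests was 0.24. Of these 5, 1 set Cdkn1b against Cdkn1c, whose values can be background.

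Among the D cyclins, Ccnd1 had log2 values of 8.10, 7.95 and 7.96 in unstretched cells and 6.61, 6.91 and 7.60 in stretched cells. All stretched values lay below the unstretched ones, and they were spread widely, with replicate 3 nearest to the unstretched arrays. The mean moved from 8.001 ± 0.084 to 7.04 ± 0.50 (SD, n = 3 each), a log2 change of -0.96 (SE 0.20, 95% interval -1.39 to -0.53, limma adjusted p = 0.00831; exact permutation p = 0.1). The other probe sets of Ccnd1 also fell, by 1.04 (SE 0.14, limma adjusted p = 0.00160 over all probe sets) and by 0.81 (SE 0.22, adjusted p = 0.0412). The first of them read 7.85, 7.58 and 7.57 in unstretched and 6.49, 6.43 and 6.96 in stretched cells. The second read 6.23, 7.18 and 6.57 against 5.72, 5.62 and 6.20, where the lowest unstretched and the highest stretched value nearly met.

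Ccnd2 was read by 7 probe sets. Its brightest had log2 values of 11.12, 11.27 and 10.97 in unstretched and 11.08, 11.02 and 11.12 in stretched cells, with overlapping groups. Its change of -0.04 (SE 0.10, -0.26 to 0.17 at 95%) did not pass in limma (adjusted p = 0.8135). The 3 next brightest probe sets had changes from -0.11 to 0.06, none past the threshold (limma adjusted p = 0.518 to 0.871 over all probe sets). The 3 dimmest had changes of 0.27, 0.30 and 0.36, of which the dimmest (mean 4.44) passed (SE 0.10, limma adjusted p = 0.0403). The probe sets of Ccnd2 thus disagreed, and the mean over them changed by 0.11 and did not pass.

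Ccnd3, the D cyclin known from mature podocytes, had log2 values of 7.98, 8.03 and 8.40 in unstretched and 8.33, 8.33 and 8.67 in stretched cells, with replicate 3 high in each group and the groups overlapping. Stretched cells were 0.31 log2 units higher (SE 0.13, 0.02 to 0.60 at 95%), which did not pass (limma adjusted p = 0.159). It passed without unstretched replicate 3 (log2 change 0.44, adjusted p = 0.0364). Its dim probe sets had changes of -0.05 and -0.13 (limma adjusted p = 0.842 and 0.504 over all probe sets), opposite in sign to the brightest, and the mean over its probe sets changed by 0.042 (adjusted p = 0.780 in limma). Within arrays, Ccnd1 relative to Ccnd2 moved from -3.12 ± 0.18 to -4.03 ± 0.48 (SD, n = 3 each) and relative to Ccnd3 from -0.14 ± 0.28 to -1.40 ± 0.32, both without overlap (exact permutation p = 0.1). Ccnd2 relative to Ccnd3 changed by -0.35 with overlap (exact permutation p = 0.3).

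Counted over probe sets, 8 of the 22 passed in limma, 5 higher and 3 lower, where 11.0% of all 45037 probe sets passed. The 8 include 3 of Ccnd1 and 2 of Cdkn1b, which are repeat readings of the same genes. Of the 5 genes with more than 1 probe set, Cdkn1b and Ccnd1 were called the same way by each of theirs. Of the 22, 6 lay below the median gene, and 2 of these passed (the dim ones of Cdkn1b and Ccnd2).

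**Figure D3:**
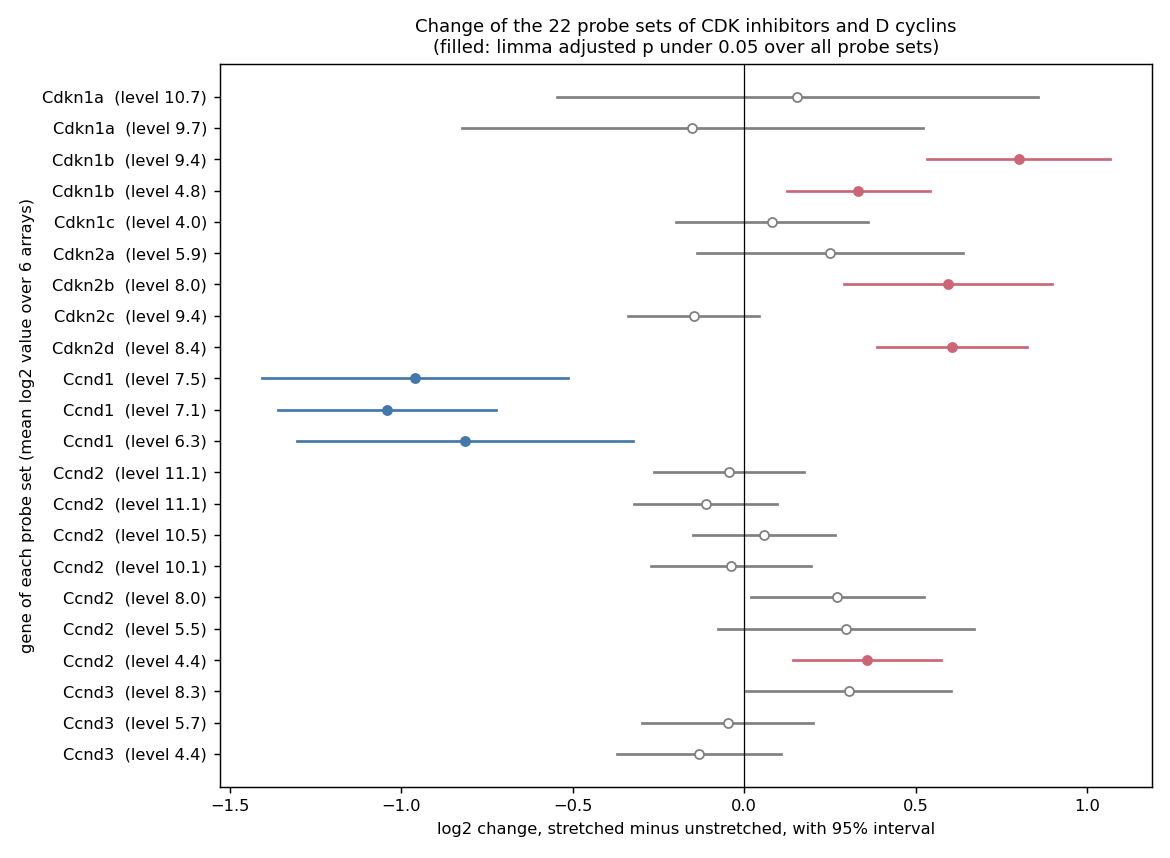
Log2 change (stretched minus unstretched, horizontal axis) with its 95% interval for each of the 22 probe sets, listed by gene with the mean log2 value over 6 arrays. Filled points passed in limma over all probe sets; all 3 probe sets of Ccnd1 lie from -1.04 to -0.81 and those of Cdkn1b at 0.80 and 0.33, while those of Ccnd2 run from -0.11 to 0.36.

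The kinases that these proteins act on did not pass. Cdk4 had a log2 change of -0.22 (SE 0.08, limma adjusted p = 0.108) and Cdk6 of 0.11 (SE 0.09, adjusted p = 0.471). The retinoblastoma gene Rb1 had 0.30 (SE 0.09, adjusted p = 0.0532), close to the threshold, and Myc, a transcription factor that drives D cyclin genes, had -0.24 (SE 0.17, adjusted p = 0.3995). Cdk4 did pass in 3 of 16 alternatives (-0.32 with quantile normalization again, -0.29 with cyclic loess, -0.22 with a trended prior; lowest limma adjusted p = 0.0118), and Rb1 in 6 of 16 (lowest 0.0215). Of 19 kinases, other cyclins and activators, 2 rose and 0 fell in limma (median log2 change 0.07). At an unadjusted p under 0.05 they were 5 higher and 2 lower. Over all genes 7.98% were called higher and 6.76% lower. Only 1 of the 19 lay below the median gene, and of the 9097 genes at or above it 1558 were called higher and 1160 lower. Among the 19, cyclin E2 (Ccne2), the partner of Cdk2 at the start of S phase, rose by 0.82 (SE 0.23, adjusted p = 0.0335), and Cks1b, a subunit needed to mark Cdkn1b protein for destruction, rose by 0.60 (SE 0.10, adjusted p = 0.00370). Ccne2 values overlapped between groups. Its call ended in 5 of 16 alternatives, at a limma adjusted p of up to 0.134.

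Of 18 retinoblastoma family, E2F and DREAM complex genes, 3 rose and 0 fell in limma (median log2 change 0.04; 6 higher and 0 lower at an unadjusted p under 0.05), a share near the 14.7% called over all genes. The complex subunits Lin9 and Lin54 rose by 0.74 (SE 0.09) and 0.70 (SE 0.11; adjusted p = 0.0516 with the mean of probe sets), and E2f1 rose by 0.29 (SE 0.08, adjusted p = 0.0436), a call that ended in 11 of 16 alternatives (adjusted p up to 0.153). Of 26 E2F target genes of the G1/S transition, 9 rose and 0 fell in limma, with a median log2 change of 0.18. Over all genes 7.98% were higher and 6.76% lower, but 0 of the 26 and 2 of the 18 lay below the median gene. Among the 9097 genes at or above it, fitted alone, 1558 were called higher and 1160 lower. At an unadjusted p under 0.05 the 26 E2F targets were 12 higher and 0 lower. The origin licensing gene Cdc6 had values of 7.48, 7.44 and 7.84 in unstretched and 8.77, 8.73 and 8.86 in stretched cells, and rose by 1.20 (SE 0.11, limma adjusted p = 9.97e-05). The single-strand binding subunit Rpa2 rose by 0.59 (SE 0.09), the clamp loader subunit Rfc4 by 0.46 (SE 0.10) and the ribonucleotide reductase subunit Rrm2 by 0.37 (SE 0.08). Rrm2 did not pass without stretched replicate 1 (adjusted p = 0.0537), stretched replicate 3 (0.0520) or replicate 3 of both groups (0.0879). The count of E2F targets that rose was 4 to 10 when single arrays were left out. The inhibitors Cdkn1b, Cdkn2b and Cdkn2d were thus higher in the stretched cells, as were Cdc6, Rpa2, Rfc4 and Rrm2. These replication genes are named because they were called, and 17 of the 26 E2F targets were not.

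Of 20 genes that act on the turnover of CDK inhibitor and D cyclin proteins, 2 rose and 1 fell in limma (median log2 change 0.09), a share close to the 14.7% called over all genes. The ubiquitin ligase scaffold Cul4a rose by 0.46 (SE 0.08), Dtl, which directs that ligase to Cdkn1a protein, rose by 0.53 (SE 0.08), and Rnf123, a ligase subunit for Cdkn1b protein, fell by 0.35 (SE 0.10, adjusted p = 0.0306), a call that ended in 5 of 16 alternatives (adjusted p up to 0.109). Of 32 transcription factors and chromatin regulators that act on the genes, 8 rose and 3 fell (median 0.08), against 7.98% higher and 6.76% lower over all genes. The AP-1 members Fosl1 (1.08, SE 0.14), Fosl2 (0.96, SE 0.09) and Jund (0.58, SE 0.09) rose, and Egr1 fell by 1.47 on the log2 scale (SE 0.13, limma adjusted p = 8.69e-05). Of the 25 p53 targets beside Cdkn1a, 2 rose and 5 fell (median -0.14), against the same 7.98% and 6.76%. The rises were thus at the share of all genes, which is not that of brighter genes. Below the median gene were only 4 of the 20, 3 of the 32 and 1 of the 25. Among the 9097 genes at or above it, 1558 were called higher and 1160 lower. Sesn1 fell by 0.64 (SE 0.10), Zmat3 fell by 0.54 (SE 0.08) and Perp fell by 0.43 (SE 0.09), while the kinase gene Plk2 rose by 0.51 (SE 0.09). The calls of Dtl, Sesn1 and Plk2 each ended in 1 of 16 alternatives (limma adjusted p up to 0.270, 0.170 and 0.522), the mean of all probe sets.

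**Figure D4:**
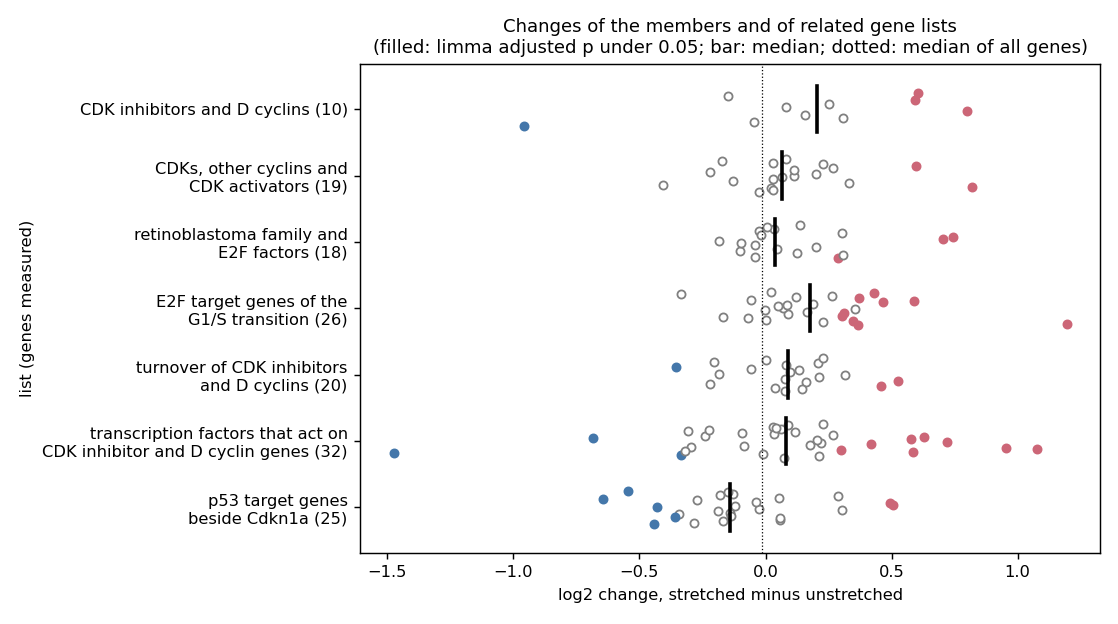
Log2 change (stretched minus unstretched, horizontal axis) of the 10 genes and of 6 lists of related genes, with the number of genes measured in brackets; filled points passed in limma, black bars are list medians and the dotted line is the median of all genes. Of the E2F targets, 9 of 26 passed, all to the right, whereas 5 of the 7 called p53 targets lie to the left.

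The genes whose array values were most like those of a called gene were found by the root mean square difference of log2 values, each centred on its mean over the 6 arrays. For Cdkn1b these were Mllt11 (0.03) and Rp2 (0.04), for Cdkn2b Mettl15 (0.04) and Helz2 (0.05), and for Cdkn2d Zfp850 (0.03) and the replication gene Rpa2 (0.04). For Ccnd1 the nearest were Gbp8 (0.15) and Dbp (0.19), at a larger distance. Mllt11 had values of 7.06, 6.92 and 7.23 in unstretched and 8.03, 7.66 and 7.91 in stretched cells, with stretched replicate 2 lowest of its group as in Cdkn1b. Likeness over 6 arrays was a description and was not tested.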

How the data were processed

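Total RNA was labelled as biotinylated cRNA and hybridised to Affymetrix mouse arrays, per the labels' protocols. The authors deposited 1 log2 value for each probe set on each array, made with RMA per the submitters' processing notes. Which RMA version and build they used is not given in the sources used here. RMA equalises the overall level of arrays, and no detection calls entered, which means low values can be background. Of 45101 probe sets, 64 controls were left out, 34945 had 1 gene symbol, 932 had several and 9160 were not named; 34741 matched a RefSeq gene ID (GRCm38) and 0 symbols changed.

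The difference, stretched minus unstretched, came from limma 3.58.1 (lmFit, eBayes) in R 4.3.3 on 18193 genes, without covariates or a filter on dim genes, and adjusted over all genes by the Benjamini-Hochberg method; probe sets were fitted likewise over all 45037. The fit was also run on simulated data with independent noise, which checks the code and not its error rate on these arrays. Single values were compared by exact permutation over the 6 arrays. The genes, lists and tests were chosen with earlier results of these data known. The text names every member, Rb1, Myc, Cdk4 and Cdk6, in each list up to 4 called genes with the largest moderated statistic, and the 2 genes most like each called member; genes without a probe set of their own symbol, 1 that the rule names among them, are not reported here. Markers were named as a check of the cells. 

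Alternatives tried were a replicate block (fixed, or random), leaving out single arrays, median centring, quantile normalization, cyclic loess, no dim genes, the mean of probe sets or every probe set, and a trended robust prior. A comparison of protein sequences was not run.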

Additional observations from a re-analysis of the deposited data

How the results depend on the processing

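Over 16 alternatives, Cdkn1b, Cdkn2d and Ccnd1 kept their direction and passed in each, at log2 changes of 0.57 to 0.91, 0.52 to 0.70 and -1.26 to -0.75. The members called numbered 3 to 5. Leaving out 1 array moved Cdkn2b to between 0.49 and 0.76 (not past the threshold without stretched replicate 1 or 3), Cdkn1a to between -0.23 and 0.44, Cdkn1c to between -0.043 and 0.22, Ccnd2 to between -0.12 and 0.032 and Ccnd3 to between 0.19 and 0.44. Without replicate 3 of both groups, a setting chosen after seeing the data, Cdkn2b was 0.53 and did not pass, and 1707 genes were called. Without 1 array the calls over all genes numbered 1661 (without stretched replicate 1) to 2639, against 2681; without stretched replicate 3 they numbered 1750. With the mean of probe sets, Ccnd2 (0.11) and Cdk6 (-0.062) changed sign, and Ccnd3 moved to 0.042 and Cdkn1a to 0.0025. The replicate block called 3102 genes and added Ccnd3 (0.31, limma adjusted p = 0.0312); it changed no other member's call, and with the number as a random block Ccnd3 did not pass (0.0973). Deviations of same-numbered arrays correlated at 0.02, 0.15 and 0.28, and not every array correlated best with its own number, so the numbers were not taken as pairs. Rises made up 61.8% of calls with arrays centred on their medians and 42.7% with quantile normalization again. Without dim genes, Cdkn1c was not tested. Of 384 results for other named genes, 346 kept their call, 28 lost it, 9 gained it and 1 changed sign. The cause of these shifts was not tested. With 3 arrays per group and no detection calls, changes of dim probe sets, Cdkn1c above all, could not be resolved.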

Other observations

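The genes next to the members on the chromosomes were mostly not called. In RefSeq gene order, 18 neighbours that are not members were measured, and 3 of the 18 passed in limma, where 14.7% of all genes did. Srsf3, a splicing factor gene beside Cdkn1a, rose by 0.50 (SE 0.11, adjusted p = 0.0130), and Bysl, a ribosome assembly gene beside Ccnd3, rose by 0.41 (SE 0.10, adjusted p = 0.0182), next to members that did not pass. LTO1, which lies beside Ccnd1, fell by 0.28 (SE 0.08, adjusted p = 0.04997). Neither neighbour of Cdkn1b passed, with log2 changes of -0.26 (SE 0.10, adjusted p = 0.133) for Gpr19 and 0.30 (SE 0.10, adjusted p = 0.0719) for Apold1. The other neighbour of Cdkn2b, Dmrta1, had -0.20 (SE 0.09, adjusted p = 0.176), and those of Cdkn2d, Kri1 and Ap1m2, had -0.13 and -0.07 (adjusted p = 0.437 and 0.682).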
